A study of Mus musculus with 13 samples.

Results

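The axoneme is the microtubule core of the sperm tail, and 73 of the 30479 genes in the deposited table code for its dyneins, spokes, linkers and inner proteins by name. They were taken as every gene whose symbol begins with Cfap, Dnah, Dnaaf, Rsph, Tekt or Drc followed by a digit, with Spag6l, Spag16 and Spag17 added. The symbols alone decide which genes belong, though the rule was set with earlier results of these data known. The genes fall into 15 dynein heavy chains, 5 assembly factors, 8 radial spoke genes, 3 genes of the nexin-dynein regulatory complex, 3 central pair genes, 5 tektins, 33 cilia and flagella associated (Cfap) genes and 1 antisense RNA, Dnah2os.

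RNA was measured in mice at postnatal day 25 that were knockout (KO), heterozygous (Het) or wild type (WT) for Wfdc15a, a gene of the WAP four-disulfide core family. Round spermatids, the haploid cells that begin to build the flagellum, were sorted on a DNA dye in pools of 100 to 200 cells and gave 3 KO, 2 Het and 2 WT libraries. Whole testis gave 3 KO, 1 Het and 2 WT libraries of 2 ng of RNA each. The labels do not describe the allele. They also do not tell animals from repeat libraries, and p-values therefore measure a spread that may be technical.

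In the axoneme, dynein heavy chains are the motors that slide the outer microtubule doublets past one another. Assembly factors fold and join these motors in the cytoplasm before they enter the tail. Radial spokes carry signals from the central pair to the dyneins, the nexin-dynein regulatory complex links neighbouring doublets, and tektins are filaments inside the doublet wall. Loss of many of these proteins leaves sperm with short or immotile tails.

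Levels are in RPM, the deposited read count scaled to the size of its library. Libraries held 7375270 to 20927428 reads, so that 3 reads, the most that an unseen gene may hide by counting error alone, were worth 0.143 to 0.407 RPM. KO replicate 1 of testis was the smallest library. It held reads for 15435 genes, against 20115 to 22587 in the other testis libraries. On the leading principal component of all genes, KO replicate 1 and both WT libraries (3 samples, called set 1) stood apart from KO replicates 2 and 3 and the Het libraries (called set 2) in each cell type, with 55.6% of the variance in round spermatids and 71.6% in testis. The sets split the KO samples only, with all WT samples in set 1 and all Het samples in set 2, so set and genotype overlap. They were found in the data, not in the labels. Wfdc15a itself was at 97.9, 67.4 and 48.1 RPM in KO, 65.0 and 71.5 RPM in Het, against 267 and 234 RPM in WT round spermatids, and at 116, 36.8 and 44.3 RPM in KO, 48.4 RPM in Het, against 212 and 207 RPM in WT testis, so every KO library held its reads. Summed round spermatid markers (18 genes) were at 11548 to 15986 RPM in the sorted cells and 6876 to 23567 RPM in testis, where Ldhc alone made up 18006 RPM of the highest sum. Of these markers, the acrosomal genes Acrv1 (245 to 379 RPM in sorted cells, 60.5 to 162 RPM in testis) and Spaca1 (357 to 458 RPM in sorted cells, 36.4 to 184 RPM in testis) were higher in every sorted sample than in any testis sample. The late spermatid genes Prm1 and Tnp1 were at 16.7 to 268 RPM (Prm1) and 18.2 to 194 RPM (Tnp1) in KO and at 26.2 RPM (Prm1) and 26.5 RPM (Tnp1) in Het, against 546 and 1106 RPM (Prm1) and 447 and 905 RPM (Tnp1) in WT testis, and so moved with the comparison of KO and WT testis. In the sorted cells Prm1 was at 13.1 to 152 RPM and Tnp1 at 19.7 to 194 RPM, below both WT testis samples throughout. The markers Prm2, Tnp2 and Ldhc were also lower in every sorted sample than in either WT testis sample. Summed meiotic spermatocyte markers (17 genes) were at 1902 to 2766 RPM in the sorted cells and 1644 to 4052 RPM in testis. Summed stromal markers (9 genes) were at 500 to 1099 RPM in the sorted samples of set 2 and 6.55 to 13.9 RPM in those of set 1. Summed Sertoli cell markers (13 genes) were at 1684 to 1877 RPM in set 2 of testis and 54.1 to 66.1 RPM in set 1 of testis. The part of these cells in the results was not tested.

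Some of the promoters carry a motif that marks many genes of motile cilia. Regulatory factor X (RFX) proteins, among them RFX2 of spermatids, bind the X-box, searched here on both strands as GTNNCC, 3 bases of any kind and GNAAC, in windows from 250 bases before to 50 after each RefSeq start on build GRCm38.p6. Windows existed for 60 of the 73 genes, and 11 of them (18.3%) held the X-box, against 2.49% of 27025 genes with a window. The sites are shown because their letters are what the 11 genes share, each read 5′ to 3′ on its own strand, with the match in capitals and up to 8 flanking bases.
Spag16, chr1:69826859-69826888, plus strand: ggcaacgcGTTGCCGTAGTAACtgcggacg
Cfap45, chr1:172521103-172521132, minus strand: gctgacgcGTTACCATAGCAACccaagaac
Cfap61, chr2:145934768-145934797, plus strand: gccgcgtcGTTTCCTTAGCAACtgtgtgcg
Cfap206, chr4:34730208-34730237, plus strand: gcagtcgcGTAACCGTGGAAACggaacgcg
Dnaaf5, chr5:139150209-139150238, minus strand: cgttgcctGTCTCCAAGGGAACcggcgcta
Dnah17, chr11:118129357-118129386, minus strand: acgcccttGTCACCAGCGCAACcacagata
Dnaaf2, chr12:69198425-69198454, plus strand: cgtgctttGTTGCCATAGTAACgcctggga
Spag6l, chr16:16829314-16829337, plus strand: gcGTCTCCAGGGCAACcgacagca
Cfap44, chr16:44394764-44394793, minus strand: ttactgcgGTTGCCATAGCAACgtccctcc
Cfap298, chr16:90935016-90935045, minus strand: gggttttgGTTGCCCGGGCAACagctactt
Tekt4, chr17:25471422-25471451, plus strand: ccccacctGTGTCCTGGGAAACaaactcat
Tekt4, chr17:25471582-25471611, minus strand: ggttcctgGTTGCCTAAGGAACattgtata

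Tekt4 alone among these genes held 2 matches. A match lay in 1 of 14 heavy chain windows, that of Dnah17, and in 10 of 46 windows of the other axoneme genes, a difference that was not tested. The shorter RFX site GTTGCC lay in 24 of 60 windows (40%), against 14.1% of all genes, and the letters of an X-box can contain it. The cyclic AMP response element TGACGTCA, bound by the spermatid activator CREM, lay in 2 of 60 (3.33%, against 2.03%) and its shorter form TGACG, which it contains, in 11 of 60 (18.3%, against 23.0%). A match describes the letters and is not evidence of binding.

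Whole windows are printed for a tektin and a central pair gene that are followed through the comparisons. They are read along the strand of the gene, and capitals mark X-box matches and, in Spag6l, the element TGACGTCA.
Tekt4, chr17:25471340-25471639, plus strand: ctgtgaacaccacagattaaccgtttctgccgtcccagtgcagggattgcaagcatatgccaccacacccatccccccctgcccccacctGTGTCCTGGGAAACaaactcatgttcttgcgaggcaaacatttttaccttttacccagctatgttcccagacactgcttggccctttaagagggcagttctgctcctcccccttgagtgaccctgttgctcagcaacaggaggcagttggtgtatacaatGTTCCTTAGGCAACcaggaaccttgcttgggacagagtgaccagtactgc
Spag6l, chr16:16829314-16829613, minus strand: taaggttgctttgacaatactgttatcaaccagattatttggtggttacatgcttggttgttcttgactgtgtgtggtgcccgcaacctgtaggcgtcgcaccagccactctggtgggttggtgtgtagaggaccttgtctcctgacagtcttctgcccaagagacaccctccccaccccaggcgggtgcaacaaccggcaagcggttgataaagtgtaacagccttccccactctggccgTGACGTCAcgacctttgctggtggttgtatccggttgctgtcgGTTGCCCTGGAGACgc

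Nearly all axoneme genes were expressed. Reads were present in every library for 71 of the 73 genes, 44 averaged at least 100 RPM over the 13 libraries and 6 averaged under 10 RPM. Per kilobase of the longest protein-coding transcript, the highest mean level was that of Rsph1, a protein of the spoke head, at 2681 RPM per kb. Cfap36 and Cfap206, a protein of the spoke base, followed at 638 and 554 RPM per kb. Tekt1 (468 RPM per kb), Tekt4 (365 RPM per kb), Tekt2 (295 RPM per kb) and Tekt3 (253 RPM per kb) were among the 10 highest.

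The heavy chains had transcripts of 12009 to 16685 bases and much lower levels per length. Dnah8, an outer arm motor of the sperm tail, was the highest of them at 69.8 RPM per kb, and Dnah17, its outer arm partner in sperm, was at 13.6 RPM per kb. Dnah5, Dnah9 and Dnah11, the outer arm motors of airway cilia, were the lowest at 0.383, 0.669 and 0.144 RPM per kb. The spoke head genes showed the same division. Rsph6a, the sperm form, averaged 158 RPM and Rsph4a, the form of motile cilia, averaged 0.315 RPM and reached 1.58 RPM in a single library. Rsph4a was the only member that missed the filter of at least 1 RPM in at least 2 libraries, which left 72 genes to test.

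Some values cannot be assigned to a single gene. Dnah7a, Dnah7b and Dnah7c share 40.3%, 48.4% and 48.5% of their 50-base stretches with one another, and Rsph3a and Rsph3b share 74.0% and 75.8%, so reads could be split between them in an unknown way. Smart-seq2 does not record the strand, and 30 of the 73 genes overlap a gene on the opposite strand, among them Dnah8, Dnah3, Dnah6, Rsph1, Rsph9 and Dnah2, whose partner is Dnah2os.

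**Figure D1:**
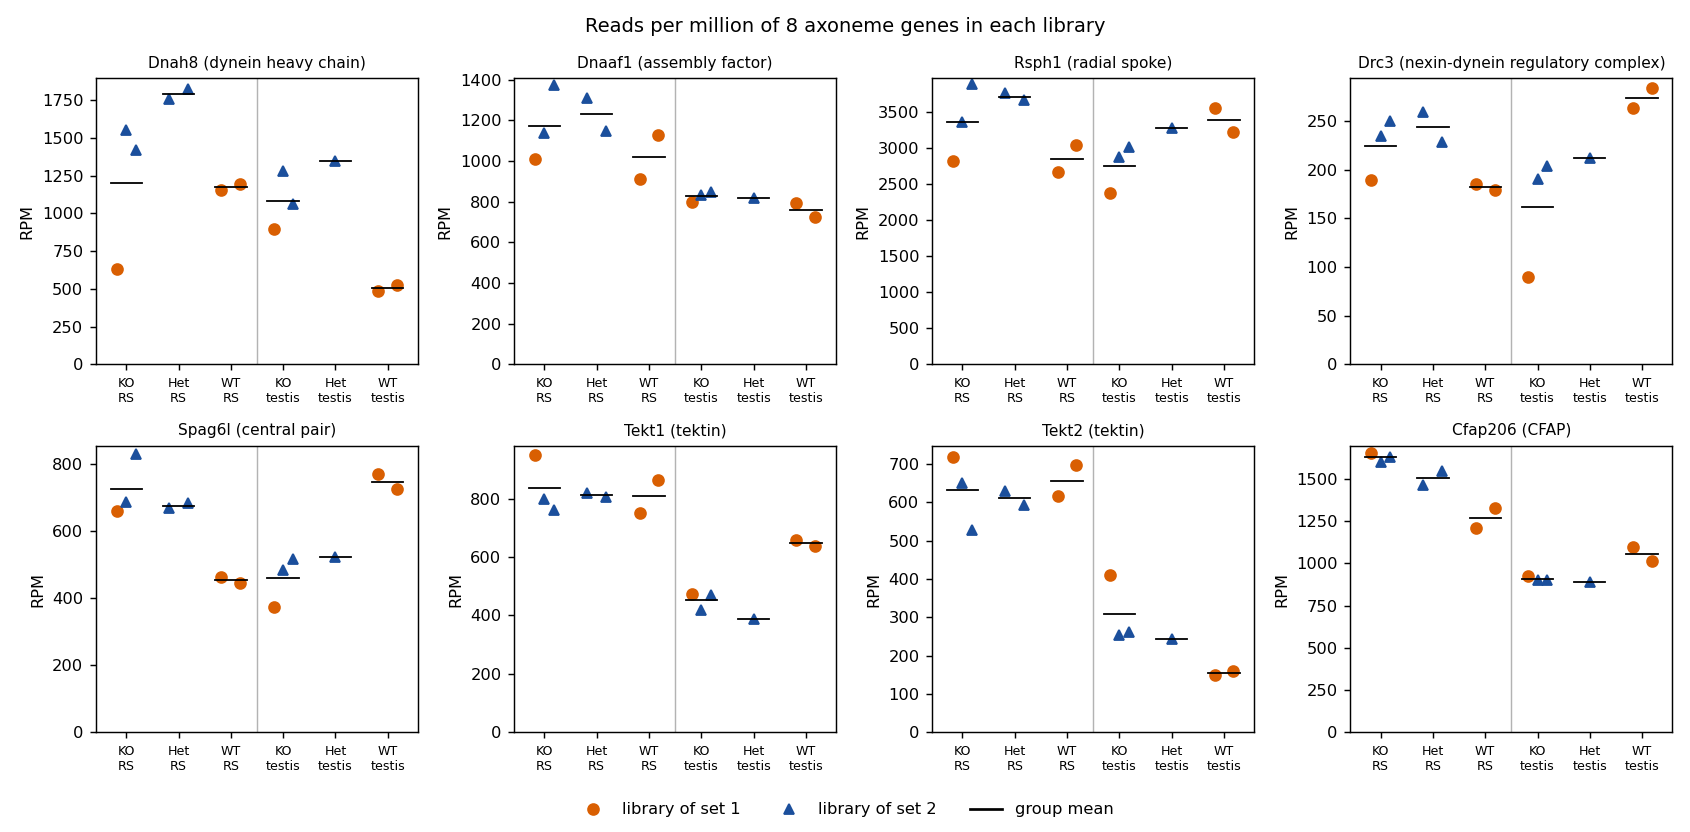
RPM (vertical axis, from 0) of 8 axoneme genes in each of the 13 libraries, by genotype in round spermatids (RS) and testis. Each point is 1 library, circles are samples of set 1, triangles samples of set 2, and bars are group means. Tekt1, Tekt2 and Cfap206 were higher in every round spermatid sample than in any testis sample, and Dnah8 was at 632 RPM in KO replicate 1 and 1155 to 1828 RPM in the other 6 round spermatid samples.

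Round spermatids were compared with whole testis to ask which axoneme transcripts the sorted cells carry in excess. Of the 72 genes tested, 25 were higher in round spermatids and 2 were lower (limma, Benjamini-Hochberg adjusted p under 0.05, all 13 libraries with genotype in the model). Among all 20085 genes tested, 8.7% were higher and 6.7% lower. The median difference of the axoneme genes was 0.50 on the log2(RPM + 1) scale, against -0.07 for all genes. At an unadjusted p under 0.05, 36 were higher and 4 lower, against 16.4% and 17% of all genes. With libraries centred on their own level the medians were 0.77 and 0.20, and with quantile normalization they were 0.32 and 0.00, so the size of the gap depended on the scaling while the sign did not. In these bulk samples more cells of a type and more RNA per cell cannot be told apart.

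Tektins formed the role with the largest median difference, 1.05, and 4 of 5 rose. Tekt2 was at 718, 650 and 529 RPM in KO, 629 and 592 RPM in Het, against 616 and 697 RPM in WT round spermatids, and at 411, 254 and 261 RPM in KO, 244 RPM in Het, against 149 and 161 RPM in WT testis. All 7 round spermatid samples lay above all 6 testis samples. The difference was 1.43 (SE 0.20, 2.70-fold, limma adjusted p = 0.00102).

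Tekt4 was at 836, 664 and 723 RPM in KO, 727 and 610 RPM in Het, against 684 and 803 RPM in WT round spermatids, and at 540, 283 and 299 RPM in KO, 241 RPM in Het, against 405 and 466 RPM in WT testis. Its groups did not overlap either, and it rose by 1.05 (SE 0.18, limma adjusted p = 0.00314). Tekt3 rose by 1.18 (SE 0.20, limma adjusted p = 0.00241) and Tekt1 by 0.74 (SE 0.15, limma adjusted p = 0.0057). Tekt5 was the exception, at 44.5 to 90.9 RPM in round spermatids and 22.5 to 82.1 RPM in testis, with a difference of 0.25 (SE 0.30, limma adjusted p = 0.579). The tektin difference was positive inside both sets, with medians of 0.72 in set 1 and 1.24 in set 2.

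The Cfap genes gave 15 of the 25 rises. Cfap36 had the smallest adjusted p of any axoneme gene, 0.000918 (limma). It was at 1384, 1463 and 1309 RPM in KO, 1477 and 1461 RPM in Het, against 1380 and 1289 RPM in WT round spermatids, and at 574, 808 and 852 RPM in KO, 756 RPM in Het, against 471 and 580 RPM in WT testis. Every round spermatid sample was above every testis sample, and the difference was 1.06 (SE 0.14).

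Cfap45, a protein inside the doublet wall and one of the X-box genes, was at 473 to 712 RPM (median 665) in round spermatids and 142 to 394 RPM in testis, again with no overlap. It rose by 1.35 (SE 0.22, limma adjusted p = 0.00241). Cfap47, a gene on chromosome X whose loss deforms the human sperm tail, had the largest difference, 2.08 (SE 0.52, limma adjusted p = 0.0162). Its values overlapped, at 30.5 to 145 RPM in round spermatids and 1.19 to 42.1 RPM in testis, and the WT testis samples held the 2 lowest. Cfap58 rose by 1.77 (SE 0.33, limma adjusted p = 0.00394), Cfap100 by 1.49 (SE 0.46, limma adjusted p = 0.0415) and Cfap61, of a complex at the spoke base, by 1.28 (SE 0.30, limma adjusted p = 0.013).

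Heavy chains leaned the same way with fewer calls. The sign was positive for 14 of 15, the median was 0.50, and 2 rose: Dnah3, an inner arm motor, by 1.71 (SE 0.44, limma adjusted p = 0.0185) and Dnah6, also of the inner arm, by 1.38 (SE 0.35, limma adjusted p = 0.0175). Dnah3 was at 71.8, 121 and 83.5 RPM in KO, 134 and 148 RPM in Het, against 138 and 151 RPM in WT round spermatids, and at 75.3, 62.4 and 47.8 RPM in KO, 65.0 RPM in Het, against 8.35 and 9.76 RPM in WT testis. The 2 WT testis samples stood far below the other 4, and the KO samples of the 2 cell types overlapped.

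For heavy chains the median was -0.01 between KO samples, 0.22 between Het samples and 1.57 between WT samples, and the test of KO against WT for this difference, gene by gene, is given at the end. The 388 other genes with transcripts of 10 kb or more had medians of -0.41, -0.45 and 0.70 in the same order, so they, too, were highest between WT samples. No heavy chain had all round spermatid samples above all testis samples. Over all axoneme genes 15 of 72 had (background 4%) and none had all below (background 1.87%).

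In the remaining roles, Rsph10b rose by 1.21 (SE 0.25, limma adjusted p = 0.00647), Drc1, a base plate protein of the nexin link, by 0.78 (SE 0.18, limma adjusted p = 0.0109), Spag17 of the central pair by 0.87 (SE 0.27, limma adjusted p = 0.0406) and Dnaaf1 by 0.49 (SE 0.13, limma adjusted p = 0.0191). Rsph1, the most abundant, did not pass, with 2660 to 3888 RPM in round spermatids, 2369 to 3552 RPM in testis and a difference of 0.09 (SE 0.13, limma adjusted p = 0.64).

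Both genes that fell were low in level. Dnaaf4, an assembly factor, was at 6.79, 11.7 and 13.6 RPM in KO, 16.9 and 13.2 RPM in Het, against 8.06 and 7.50 RPM in WT round spermatids, and at 14.2, 39.0 and 43.4 RPM in KO, 35.1 RPM in Het, against 27.7 and 31.9 RPM in WT testis. Only KO replicate 1 of testis fell within the round spermatid range. The difference was -1.49 (SE 0.31, limma adjusted p = 0.0078). Rsph3b fell by 0.96 (SE 0.29, limma adjusted p = 0.0415), with the reservation that its reads are shared with Rsph3a.

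**Figure D2:**
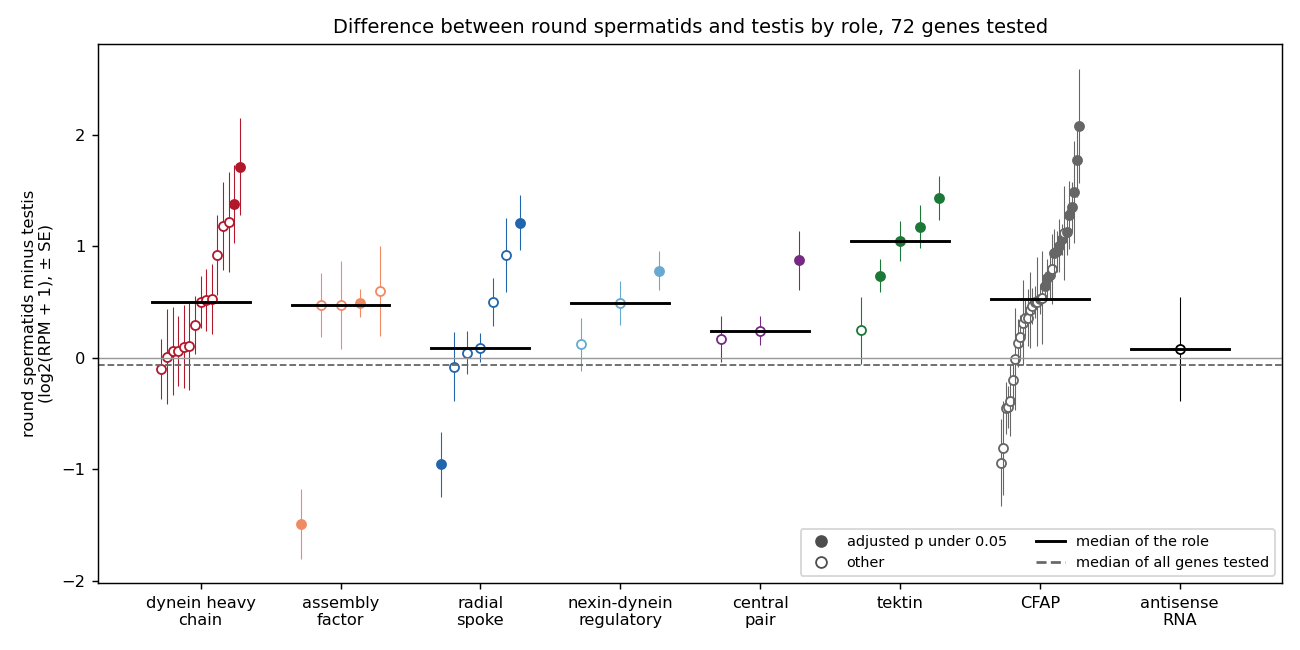
Difference between round spermatids and testis on the log2(RPM + 1) scale (vertical axis, ± SE) for the 72 tested axoneme genes, grouped by role. Filled points passed an adjusted p of 0.05, black bars are role medians and the dashed line is the median of all genes tested, -0.07. Tektins have the highest median, 1.05, and the 2 filled points below 0 are Dnaaf4 and Rsph3b.

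Other axoneme and cilia regulators listed alongside went the same way. Of 61 such genes tested, 27 were higher in round spermatids and 0 lower, against 8.7% and 6.7% of all genes, with a median of 0.63. Among them were Rfx2, Rfx3 and Foxj1, transcription factors of ciliated cells, while Rfx1 (1.61, limma adjusted p = 0.0732) and Rfx4 (0.29, limma adjusted p = 0.569) did not pass. Rfx2 was at 114, 142 and 179 RPM in KO, 145 and 148 RPM in Het, against 134 and 163 RPM in WT round spermatids, and at 88.8, 118 and 123 RPM in KO, 121 RPM in Het, against 40.0 and 35.5 RPM in WT testis. The WT testis samples were again the lowest, and the difference was 0.85 (limma adjusted p = 0.0429). Foxj1 rose by 1.83 and Rfx3 by 1.46 (both limma adjusted p = 0.0196). Of the 11 axoneme genes with an X-box 4 were higher and 0 lower, with a median of 0.60. Of the 49 with a window that lacked it 15 were higher and 2 lower, with a median of 0.50. The shares of all genes were 8.7% and 6.7%. The difference between genes with and without the X-box was not tested.

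With samples of set 1 alone, 13 of 72 axoneme genes were higher and 0 lower, against 9.24% and 3.26% of all genes. With samples of set 2 alone 42 were higher and 10 lower, against 18% and 40.6%. The WT samples alone gave 37 higher and 7 lower, against 25.3% and 12.1%, and the KO samples alone gave 0 calls, 21 genes at an unadjusted p under 0.05 (13.6% of all genes) and a median of 0.43.

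KO and WT testis were compared to ask whether loss of Wfdc15a moves axoneme transcripts in the organ. No axoneme gene passed the threshold (limma, 0 of 72, and 0% of all 18570 genes), while 29 were higher and 4 lower at an unadjusted p under 0.05, against 17% and 6.54% of all genes. The median was 0.67 for axoneme genes and 0.63 for all genes. Libraries centred on their own level gave -0.27 and -0.31, but quantile normalization gave 0.42 and 0.03, so the distance from all genes depended on the scaling. The set as covariate gave 0.48 and -0.14, but that contrast rests on KO replicate 1 against WT. Without KO replicate 1, 38 axoneme genes were higher and 17 lower, against 51.2% and 14% of all genes, with KO and WT then in different sets.

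The roles parted within that median. Dnah8 was at 896, 1280 and 1065 RPM in KO and 484 and 529 RPM in WT testis, with the Het sample at 1348 RPM. The 3 KO samples lay above the 2 WT samples, with a difference of 1.08 (SE 0.26, limma adjusted p = 0.0866). Dnah12, an inner arm motor, was at 124, 203 and 134 RPM in KO, 236 RPM in Het, against 25.7 and 33.6 RPM in WT testis, a KO difference of 2.31 (SE 0.38, limma adjusted p = 0.071). In all, 13 of 15 heavy chains had a positive difference, with a median of 1.80, and in 11 of 15 every KO sample was above every WT sample. Over all axoneme genes this held for 36 of 72, against 28.2% of all genes tested, and the opposite for 15 of 72, against 14.1%.

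Dnaaf5, an assembly factor, had the smallest unadjusted p of the axoneme genes in testis. Its level was 67.8, 81.0 and 82.7 RPM in KO, 71.4 RPM in Het, against 7.21 and 7.60 RPM in WT testis, with no overlap and a KO difference of 3.21 (SE 0.42, limma adjusted p = 0.071). Cfap54 of the central pair (2.47, SE 0.42) and Cfap65 (2.33, SE 0.37) had the same adjusted p.

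Spoke and tektin genes were mixed. Of 7 radial spoke genes 4 had a negative difference (median -0.30), and of 5 tektins 4 had (median -0.42), with 0 calls in either role. Tekt2, at 411, 254 and 261 RPM in KO, 244 RPM in Het and 149 and 161 RPM in WT testis, had every KO sample above WT and a difference of 0.95 (SE 0.33, limma adjusted p = 0.158). Rsph10b was also higher in every KO sample than in WT, with a difference of 1.30 (SE 0.48, limma adjusted p = 0.174). Rsph9, a spoke head protein, was at 457, 167 and 197 RPM in KO, 158 RPM in Het, against 1035 and 1062 RPM in WT testis. All KO samples lay below WT, with a difference of -2.08 (SE 0.47, limma adjusted p = 0.0788). Cfap20, a protein of the inner doublet junction, was at 190, 167 and 182 RPM in KO, 168 RPM in Het, against 387 and 452 RPM in WT testis, a difference of -1.21 (SE 0.28, limma adjusted p = 0.079). Spag6l was at 374, 485 and 517 RPM in KO, 524 RPM in Het, against 769 and 725 RPM in WT testis, a difference of -0.72 (SE 0.27, limma adjusted p = 0.179).

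Transcript length moved with these differences. Across the 72 axoneme genes Pearson's r between log10 length and the KO difference in testis was 0.57, a description across genes that share the same libraries. Among genes outside the axoneme list, the median was 1.41 for the 371 with transcripts of 10 kb or more and -0.03 for the 6564 under 2 kb. After each library's trend with length was removed the median of the heavy chains was 1.03, against 0.62 for all genes, with 0 calls. The Het testis sample differed from WT in the same way, with a heavy chain median of 2.16 and a median of 1.99 for other transcripts of 10 kb or more, and it was above both WT samples for 13 of 15 heavy chains (48 of 72 axoneme genes, background 67.2%).

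In sorted round spermatids, KO and WT differed less. Again 0 of 72 axoneme genes passed (limma, 0% of all 18075 genes), with 9 higher and 4 lower at an unadjusted p under 0.05, against 11.2% and 9.92% of all genes. Medians were 0.15 for axoneme genes and 0.03 for all genes. KO samples lay entirely above WT for 14 of 72 genes (background 16.6%) and entirely below for 5 of 72 (background 19.4%). Without KO replicate 1, 27 were higher and 4 lower, against 19.5% and 11.3% of all genes.

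The nexin-dynein regulatory complex had the highest role median, 0.76. Drc7 was at 99.3, 131 and 138 RPM in KO, 161 and 120 RPM in Het, against 51.1 and 74.1 RPM in WT round spermatids. KO and Het samples all lay above WT, with a KO difference of 0.97 (SE 0.25, limma adjusted p = 0.128) and a Het difference of 1.16 (SE 0.27, limma adjusted p = 0.0639). Drc1 was at 214, 307 and 299 RPM in KO, 290 and 320 RPM in Het, against 166 and 152 RPM in WT, with a KO difference of 0.76 (SE 0.20, limma adjusted p = 0.13). Cfap52, a doublet wall protein, was at 271, 263 and 267 RPM in KO, 269 and 276 RPM in Het, against 173 and 150 RPM in WT. Its samples were close within KO and Het and lower in WT, with a KO difference of 0.72 (SE 0.16, limma adjusted p = 0.121).

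Spag6l was at 661, 687 and 830 RPM in KO, 668 and 684 RPM in Het, against 463 and 446 RPM in WT round spermatids, with KO and Het above WT in every sample and a KO difference of 0.67 (SE 0.16, limma adjusted p = 0.127). The sign was opposite to that in testis. Cfap97d1 was at 108, 60.4 and 43.4 RPM in KO, 52.6 and 51.4 RPM in Het, against 129 and 111 RPM in WT, all KO samples below WT, with a difference of -0.86 (SE 0.33, limma adjusted p = 0.188).

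Het and WT round spermatids gave 0 of 72 calls as well (limma, 0% of all genes), with 15 higher and 5 lower at an unadjusted p under 0.05 (background 16.1% and 9.07%). Leaving KO replicate 1 out of the shared estimate of spread gave 31 calls (26.4% of all genes), and leaving KO replicate 3 out gave 6 (6.51%). Both Het samples were above both WT samples for 47 of 72 axoneme genes, among them 12 of 15 heavy chains, and below for 8, against 40.6% and 23.2% of all genes. The heavy chain median was 0.59, and that of the 376 other genes with transcripts of 10 kb or more was 0.46. Het and WT samples lie in different sets, so these samples alone cannot tell the set from the genotype. With the set as covariate the axoneme median was -0.02, against -0.07 for all genes. In that fit the set effect comes from the KO samples alone, with KO replicate 1 as the only KO sample of set 1.

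In round spermatids most heavy chains were lower in KO than in the other samples of the same set, as were most other long transcripts. Of the 376 other genes with transcripts of 10 kb or more, 18.9% were positive in set 1 (median -0.47). In set 2, 25% of them were positive (median -0.30). In round spermatids of set 1, KO replicate 1 was below both WT samples for 13 of 15 heavy chains (30 of all 72 axoneme genes, background 42.6%) and above both for 1 of 15 (25 of 72, background 26.4%). In set 2, KO replicates 2 and 3 were both below both Het samples for 13 of 15 heavy chains (27 of 72, background 21.4%), and the mean difference was negative for all 15. Dnah8 was at 632 RPM for KO replicate 1, against 1155 and 1196 RPM in WT, and at 1554 and 1422 RPM for KO replicates 2 and 3, against 1756 and 1828 RPM in Het. Its KO samples were the lowest of each set.

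Dnah6 was at 86.3 RPM for KO replicate 1, against 183 and 192 RPM in WT, and at 207 and 168 RPM for KO replicates 2 and 3, against 268 and 255 RPM in Het. Dnah3 was at 71.8 RPM for KO replicate 1, against 138 and 151 RPM in WT, and at 121 and 83.5 RPM for KO replicates 2 and 3, against 134 and 148 RPM in Het. In both genes, too, no KO sample reached a sample of its set with a WT or Het label.

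A fit with the set in the model, which contrasts KO with WT and Het pooled, was chosen after these values had been seen. In round spermatids the heavy chain median was -0.50, the sign was negative for 14 of 15, and the median of all genes was -0.06. None passed the threshold (limma, 0 of 72 axoneme genes, against 0.105% of all genes lower and 0% higher), and 4 passed without KO replicate 2 (0.594% of all genes in either direction). Dnah6 came nearest, at -0.74 (SE 0.14, limma adjusted p = 0.0504), followed by Dnah8 at -0.52 (SE 0.11, limma adjusted p = 0.0678) and Dnah3 at -0.69 (SE 0.16, limma adjusted p = 0.0965). At an unadjusted p under 0.05, 18 axoneme genes were lower and 2 higher, against 8.54% and 2.93% of all genes. That total of 20 was 7 without KO replicate 1 (7.03% of all genes) and 8 with the length correction (10.6%). Shorter axoneme genes lay near 0. Tektins had a median of 0.10 and radial spoke genes of 0.10, and Tekt2 was at 0.02 (SE 0.10, limma adjusted p = 0.967).

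Length moved with this difference as well. The 376 other genes with transcripts of 10 kb or more had a median of -0.40, and 18.1% of them were positive. The 8 axoneme genes of 5 to 10 kb, among them Spag17, Cfap47 and Cfap54, had a median of -0.34 and 7 of 8 were negative. With the trend of each library removed, the heavy chain median was -0.23, against -0.06 for all genes, and 12 of 15 were negative. Whether heavy chains differ beyond other transcripts of their length was not tested.

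Testis samples did not repeat this pattern in set 1. The only KO sample there, KO replicate 1, had the fewest reads and the fewest genes with a read of all libraries. KO replicate 1 was above both WT samples for 12 of 15 heavy chains (40 of 72 axoneme genes, background 37.8%), while KO replicates 2 and 3 were below the Het sample for 13 of 15 (33 of 72, background 37.2%). Dnah8, for example, was at 896 RPM for KO replicate 1, against 484 and 529 RPM in WT, and at 1280 and 1065 RPM for KO replicates 2 and 3, against 1348 RPM in Het. The 371 other genes with transcripts of 10 kb or more had a median of 0.68 for KO replicate 1 minus WT. For KO replicates 2 and 3 minus Het their median was -0.19. With the set in the model the heavy chain median in testis was 0.58, against 0.22 for those other long transcripts. In that fit 0 of 72 axoneme genes were called (limma, 0% of all genes), with 6 higher and 3 lower at an unadjusted p under 0.05 (background 4.69% and 6.78%). Without the Het sample the fit compares KO replicate 1 with WT alone and called 42 (39.6% of all genes). Voom on recovered reads gave 0 calls in each of the 5 comparisons that had none here.

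**Figure D3:**
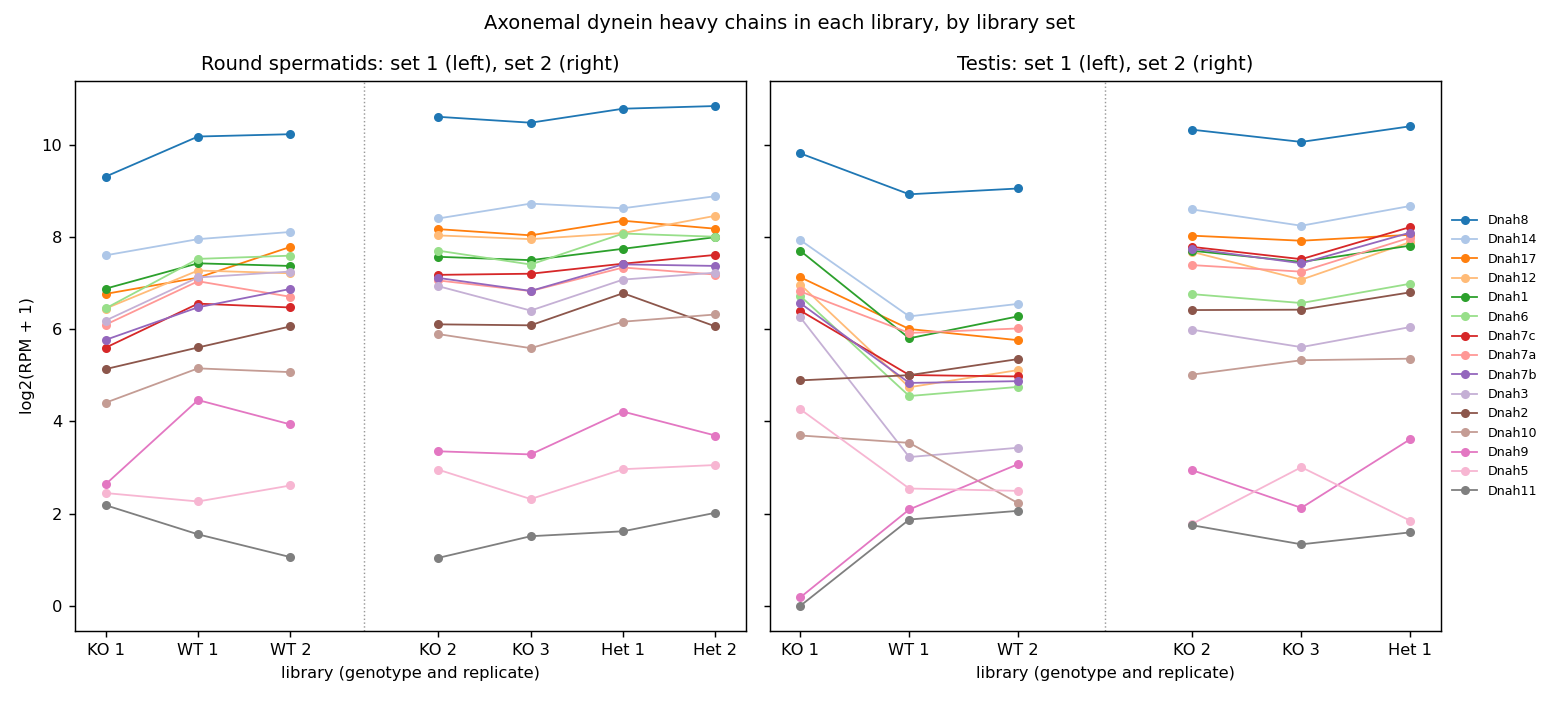
Level of the 15 axonemal dynein heavy chains on the log2(RPM + 1) scale (vertical axis) in each library of round spermatids (left panel) and testis (right panel), with the samples of set 1 left of the dotted line and those of set 2 right of it. Lines join the libraries of 1 gene within a set. In round spermatids KO replicate 1 was below both WT samples for 13 of 15 chains, and in testis it was above them for 12 of 15.

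**Figure D4:**
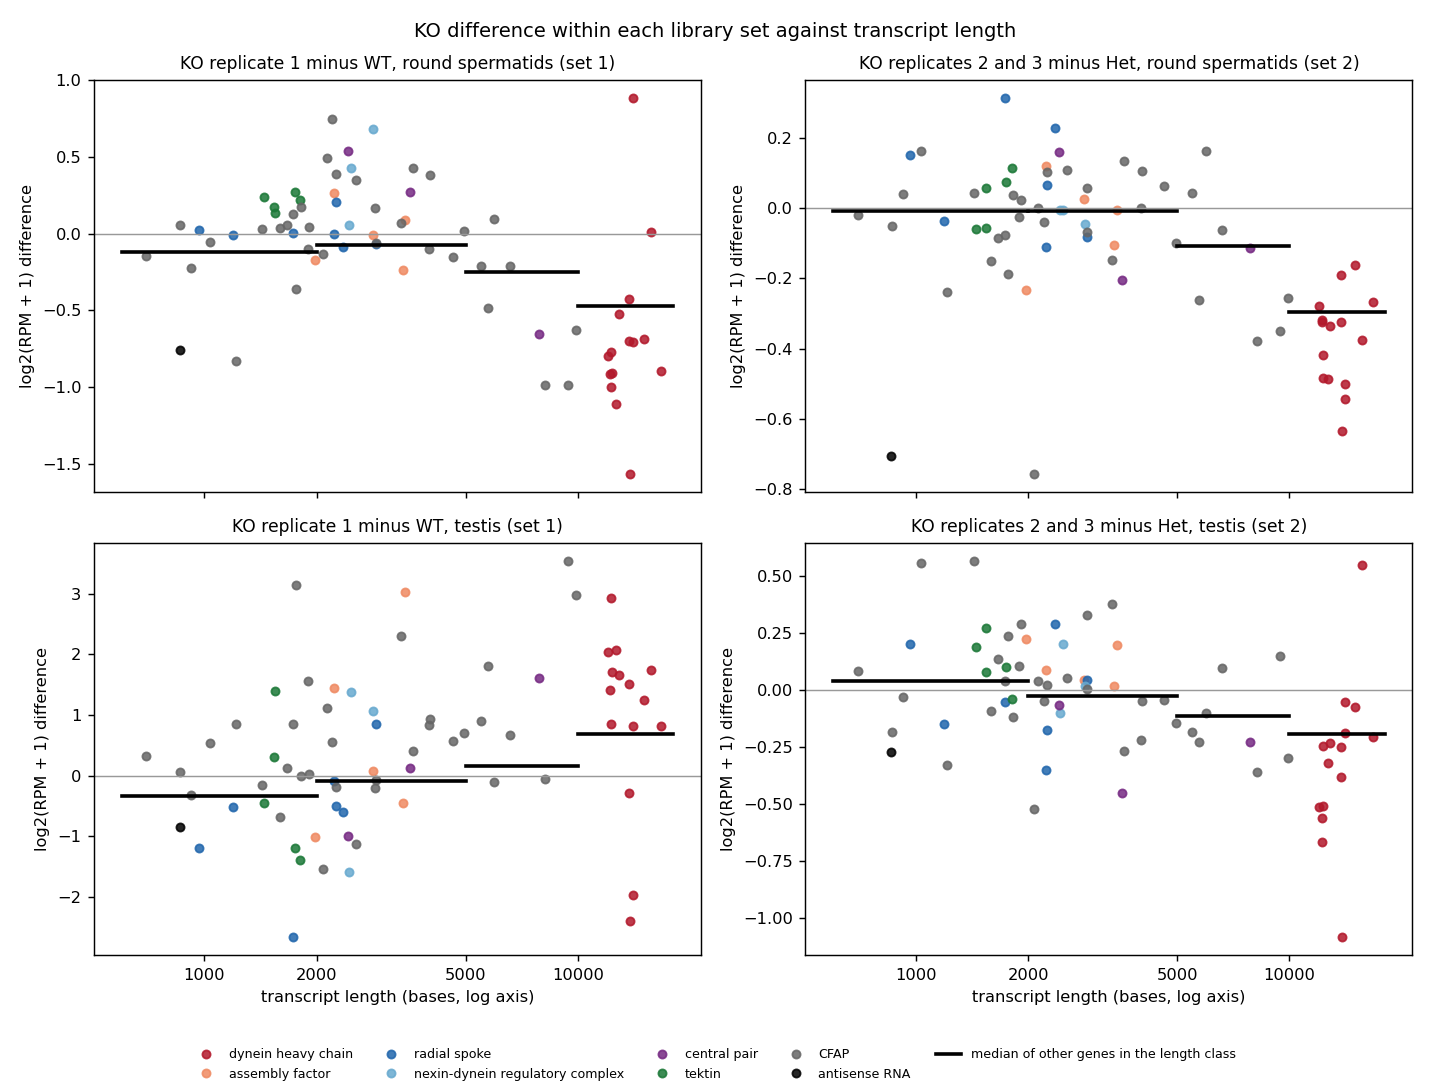
KO difference on the log2(RPM + 1) scale (vertical axes, scaled apart) against transcript length (log axis) for the 72 tested axoneme genes, within set 1 (KO replicate 1 minus WT) and set 2 (KO replicates 2 and 3 minus Het). Black bars are medians of all other genes in 4 length classes. Heavy chains, at the right, had medians of -0.77 and -0.34 in round spermatids and 1.41 and -0.25 in testis.

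The KO effects of the 2 cell types were set against each other in 1 fit of all 13 libraries. They differed for 10 of 72 axoneme genes (limma adjusted p under 0.05), 2 with a higher and 8 with a lower effect in round spermatids, against 0.294% and 1.84% of all genes (2.13% in either direction). At an unadjusted p under 0.05 the counts were 7 higher and 22 lower, against 3.77% and 13.5%. The lower ones included the heavy chains Dnah3 (-3.30), Dnah6 (-2.41) and Dnah1 (-1.66), and the higher ones were Spag6l (1.38) and Cfap20 (1.36). Long transcripts outside the axoneme list moved the same way as the lower ones. The 388 of 10 kb or more had a median of -1.28, and 15.7% were positive, beside a heavy chain median of -1.61. With the length correction 8 axoneme genes passed (1.66% of all genes). Whether axoneme genes differ beyond other transcripts of their length was not tested here either. The median of all genes was -0.48, and 0 axoneme genes passed when libraries were centred or quantile normalized (19 and 28 at an unadjusted p under 0.05). With voom 8 passed (1.66% of all genes). No axoneme gene passed without WT replicate 1 of testis or without either WT sample of round spermatids, 37 passed without KO replicate 1 of testis (31.1% of all genes), and 2 to 4 passed without any other single KO sample, a Het sample of round spermatids or WT replicate 2 of testis.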

How the data were processed

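RNA-seq libraries were made by Smart-seq2 from sorted round spermatids (7) and whole testis (6), per the labels' protocols. The authors deposited 1 table of log2 RPM for 30479 genes. The submitters' processing notes name HISAT2 2.1.0, Trim Galore 0.6.6, FastQC 0.11.8 and build mm10. Which program counted the reads, and on which annotation, is not given in the sources used here. Smart-seq2 has no molecular identifiers, so reads are not independent molecules.

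The deposited log2 values were turned back into RPM. In each library the lowest value stood for 0.9 read and was set to 0, and 99.797% to 99.997% of values were whole reads within 0.01 read. Genes that reached 1 RPM in 2 or more of the fitted libraries were analysed as log2(RPM + 1), which understates changes of low genes, with limma 3.58.1 in R 4.3.3 (empirical Bayes with trend, two-sided, Benjamini-Hochberg over all tested genes, threshold 0.05). Each cell type was fitted with its 3 genotypes; cell types were compared over 13 libraries with genotype in the model. The fits were run on simulated counts that held no difference between the library sets. That run cannot show how the fits behave where the sets differ. Lengths and exons came from GENCODE M21, where 72 of 73 genes lie at the deposited coordinates, and promoters from RefSeq GRCm38.p6.

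Genes named are the 3 highest per role, and per comparison up to 10 in each direction past the threshold, filled to 5 by unadjusted p; heavy chains and other genes shown beside them were chosen after their values were seen. The members, lists and tests were chosen with earlier results of these data known. The library sets come from the sign of the first principal component in each cell type. Replicate numbers were not taken to pair the samples, and whether they do is not settled. The same-numbered KO and WT samples had correlations of their deviations from 0.00 to 0.05. Of the same-numbered round spermatid and testis samples the 3 KO pairs were at 0.50, 0.28 and 0.40 and the WT pairs at -0.02, so that not every pair exceeded 0.1. The WT pairs share a single value, since the deviations of 2 samples mirror each other. Alternatives tried were a pseudocount of 0.1 RPM, the deposited log2 values, no expression filter, a minimum mean of 5 RPM, centred or quantile-normalized libraries, voom on recovered reads, quality weights, a length correction (loess, span 0.5), the set as covariate, a replicate block, other choices of samples, and leaving out each library.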

Additional observations from a re-analysis of the deposited data

Results flagged for a closer look

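The KO effect differed between round spermatids and testis, by limma's test of the difference itself, for 10 axoneme genes. The difference of the effects (round spermatids minus testis, log2 scale) was -3.30 for Dnah3, -2.84 for Dnaaf5, -2.69 for Cfap54, -2.41 for Dnah6, -2.29 for Cfap65, -2.18 for Cfap58, -1.78 for Spag17 and -1.66 for Dnah1. It was 1.38 for Spag6l and 1.36 for Cfap20. In testis the WT samples had the lowest levels of the 8 genes with a negative difference and the highest of the other pair. The median difference of the effects was -1.28 for the 388 genes outside the list with transcripts of 10 kb or more. Without KO replicate 1 in both cell types, an alternative added after the data were seen, 42 of 72 axoneme genes passed (32.8% of all genes), and with centred libraries 0 did.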

How the results depend on the processing

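Calls are counts of the 72 axoneme genes. For KO against WT round spermatids, 0 calls became 23 with quality weights. Leaving out 1 library gave 0 to 31 (31 without KO replicate 1, 30.8% of all genes). With the set as covariate this contrast rests on KO replicate 1 against WT, with a median of -0.01, against -0.12 for all genes. For KO against WT testis, 0 became 55 with quality weights and 33 in a fit of all 13 libraries (20.7% of all genes). Leaving out 1 library gave 0 to 55 (55 without KO replicate 1, 65.2% of all genes). With the set as covariate this contrast, too, rests on KO replicate 1 against WT, with a median of 0.48, against -0.14 for all genes. For Het against WT round spermatids, 0 became 29 with quality weights, 4 with quantile normalization (4.63% of all genes) and 9 with the replicate block (8.79%). Leaving out 1 library gave 0 to 31 (31 without KO replicate 1, 26.4% of all genes, and 6 without KO replicate 3, 6.51%). With the set as covariate this contrast takes the set effect from the KO samples, with a median of -0.02, against -0.07 for all genes. For round spermatids against testis, 27 (15.4% of all genes) became 46 with quality weights, 44 with WT samples alone (37.5%) and 0 with KO samples alone (0%). Set 1 alone gave 13 (12.5% of all genes), set 2 alone 52 (58.6%) and the replicate block 25 (15.2%). With 1 library left out 19 to 35 passed (8.12% to 38.0% of all genes). For the difference of the KO effects, 10 (2.13% of all genes) became 42 with quality weights, 30 with the set (13.8%) and 0 with centred or quantile-normalized libraries. Without KO replicate 1 in both cell types 42 passed (32.8% of all genes), and 0 to 37 with 1 library left out (0% to 31.1%). For KO against WT and Het with the set in round spermatids, 0 became 1 with a mean of at least 5 RPM (0.167% of all genes). It became 2 with quantile normalization (0.116% of all genes) and 1 with quality weights (0.194%). Leaving out 1 library gave 0 to 4 (4 without KO replicate 2, 0.594% of all genes). In testis, leaving out the Het sample leaves KO replicate 1 against WT, with an axoneme median of 0.48, and leaving out any other library gave 0 calls. With quality weights 31.6%, 67.5%, 26.6%, 58.3% and 34.6% of all genes were called in the first 5 comparisons, in the order given. The cause of these shifts was not tested. Signs turned for Cfap206 in the difference of the KO effects with quantile normalization (-0.14) and for Cfap52 in round spermatids with the set and without KO replicate 1 (-0.040), where leaving out other libraries gave up to 0.36. Leaving out KO replicate 1 leaves genotype and set aligned, and their parts cannot be told apart.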
